A study of Mus musculus with 12 samples.

Results

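The liver zonation markers are 10 genes chosen by name, 7 of them pericentral (Glul, Cyp2e1, Cyp1a2, Oat, Axin2, Tbx3 and Rhbg) and 3 periportal (Cyp2f2, Hal and Gls2), among 37991 gene models measured by RNA sequencing in primary mouse hepatocytes. All 10 are in the deposited table, and 9 of them, all except Axin2, reached the level set for testing (at least 1 FPKM in at least 3 libraries). FPKM is a level corrected for gene length and library size.

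Blood crosses the liver lobule from the portal vein to the central vein, and hepatocytes along that path divide the work. Periportal cells break down amino acids and make urea, whereas pericentral cells capture the remaining ammonia as glutamine and oxidise drugs and alcohol. WNT ligands from central vein endothelium, acting through β-catenin, keep the pericentral genes on and the periportal genes low near that vein.

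The hepatocytes came from 10-week-old male mice whose REV-ERBα and REV-ERBβ genes (Nr1d1 and Nr1d2) both carried loxP sites. REV-ERBα and REV-ERBβ are repressors of the circadian clock. The mice had been given, 2 weeks before, AAV8-TBG-Cre-GFP (KO) or AAV8-TBG-GFP (control), viruses that act in hepatocytes through the TBG promoter. The cells were freed by collagenase digestion, plated on collagen and given 10 µM SR9009, a compound made as a REV-ERB agonist, or its solvent DMSO for 8 h. This gave 4 groups of 3 libraries: KO-labelled SR9009, KO-labelled DMSO, control SR9009 and control DMSO. All 4 groups carry the loxP alleles and a virus, and no strain is named in the labels. Without a group that has Cre but no loxP sites, Cre itself and loss of REV-ERB cannot be told apart. No label ties a replicate to an animal or a culture, so the p-values measure the spread between these libraries, which may be technical.

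The targeted genes were read first. Nr1d1 stood at 17.4, 17.5 and 18.3 FPKM in KO-labelled DMSO libraries, against 18.3, 18.3 and 19.0 FPKM in control DMSO libraries, and Nr1d2 at 16.3, 16.2 and 16.1 FPKM in KO-labelled DMSO libraries, against 13.9, 14.7 and 17.4 FPKM in control DMSO libraries (two-sided exact permutation p = 0.1 and 0.4; 0.1 is the smallest that 3 against 3 libraries allow). With SR9009, Nr1d1 ranged from 21.6 to 22.5 FPKM in KO-labelled and from 19.0 to 20.1 FPKM in control libraries, and Nr1d2 from 15.9 to 18.9 FPKM in KO-labelled and from 13.5 to 16.7 FPKM in control libraries. In the fit over all tested genes (limma), neither gene passed between genotypes in DMSO. Under SR9009, 1 of the 2 was called higher in KO-labelled cells, beside 12.9% of all tested genes. Within KO-labelled cells, 1 of the 2 was called higher with SR9009 than with DMSO, beside 9.87% of all tested genes called in either direction. Values over whole gene models cannot show the loss of some exons, so the labels are checked neither way, and the groups are called KO-labelled here. The 10 hepatocyte markers, such as Alb, summed to between 41830 and 47660 FPKM in a library, while all values of a library summed to between 538521 and 604449 FPKM. Alb alone lay between 18370 and 20880 FPKM, and single markers differed. In KO-labelled DMSO cells 4 of the 10 were called higher and 2 lower, beside 11.7% and 8.32% of all tested genes. Under SR9009 4 were higher and 3 lower, beside 12.9% and 7.43%. Relative depth, read from the steps between low values, was 55.5% in control SR9009 replicate 1 and 63.4% in KO-labelled DMSO replicate 1 of that in the deepest library, and 77.1% to 100% in the other libraries.

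In DMSO, the periportal and pericentral members moved in opposite directions between the genotypes. All 3 periportal members rose in KO-labelled cells, Cyp2f2 2.29-fold, Hal 2.45-fold and Gls2 1.997-fold. Of the 6 pericentral members tested, 4 fell (Oat by 26.3%, Glul by 19.2%, Rhbg by 33.8% and Cyp2e1 by 9.84%), while Cyp1a2 and Tbx3 did not pass the test. The calls of Rhbg and Cyp2e1 sat close to the threshold of 0.05 and were lost in most alternatives, as given with their values. Without both libraries of lowest depth, a choice made after the depths were seen, 5 members passed: all 3 periportal members, Oat and Glul.

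Together 7 of 9 tested members passed, where 20.0% of all 11213 tested genes did (limma, Benjamini-Hochberg adjustment over all of them). The members were chosen with earlier results of these data known, so the shares of all genes are given as description only. The 3 higher members stand beside 11.7% of all genes called higher, and the 4 lower members beside 8.32% called lower. Of all genes, 58.3% of the calls were higher, or 69.5% after rescaling each library to a common sum. The libraries of KO-labelled and control cells did not overlap for 7 of 9 members, against 41.2% of all tested genes. The tissue is bulk RNA from many plated cells, so fewer cells of a zone and less RNA per cell cannot be told apart.

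**Figure D1:**
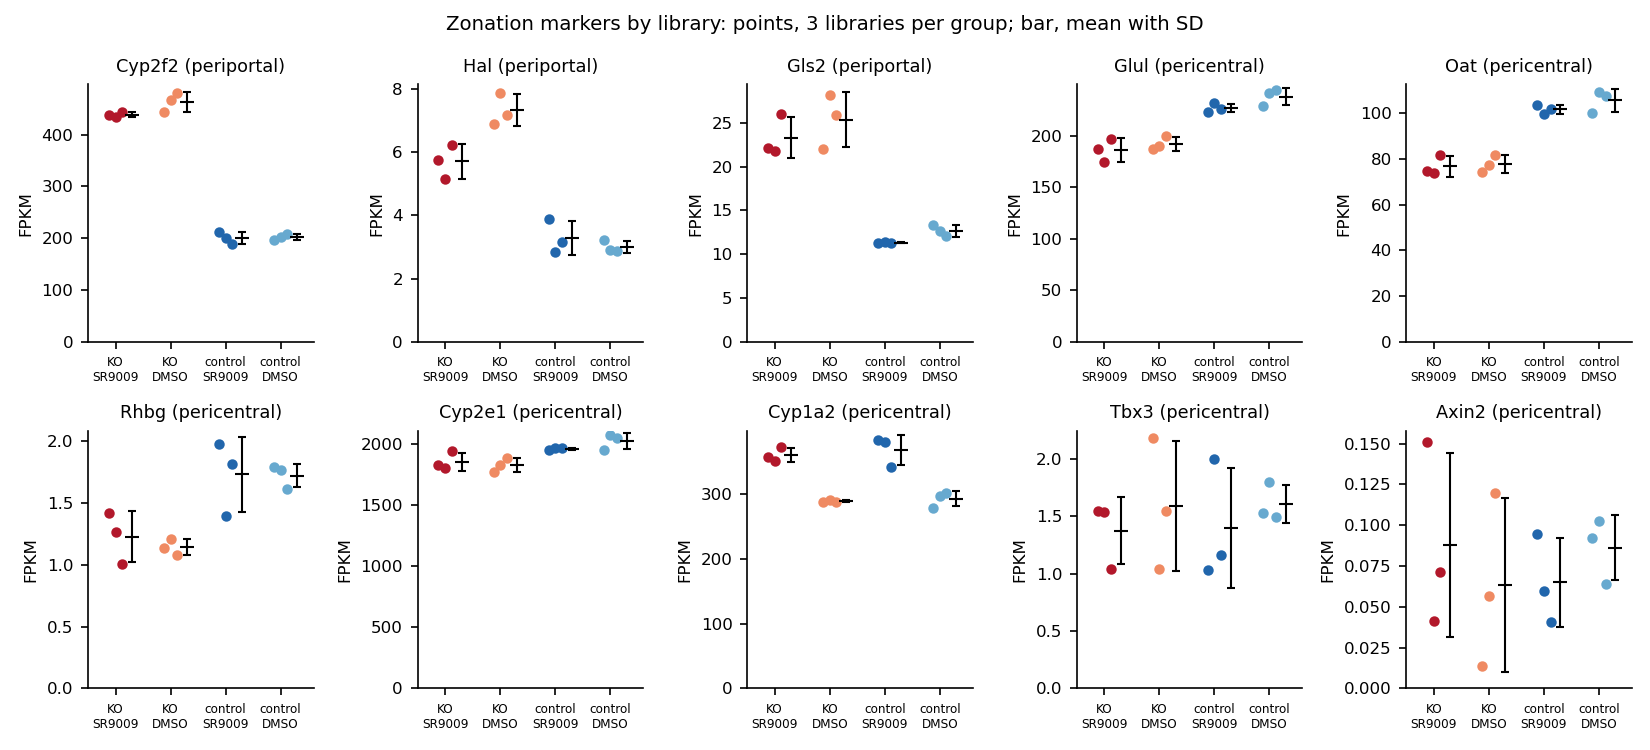
FPKM of the 10 zonation markers in each library (y axis, linear from 0; KO means KO-labelled); points are libraries, 3 in each of the 4 groups on the x axis, and the bar is the mean with its SD. Cyp2f2, Hal and Gls2 are higher in all 6 KO-labelled libraries than in all 6 control libraries, Glul and Oat are lower in all 6, and Cyp1a2 separates by treatment.

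Some markers of other liver cells differed between genotypes, beside 20.0% of all tested genes called in DMSO and 20.4% under SR9009. The 7 Kupffer cell markers, of which none was at 0 in any library, summed to 6.89 to 11.7 FPKM in KO-labelled SR9009 and 8.25 to 10.3 FPKM in KO-labelled DMSO libraries, against 20.2 to 21.1 FPKM in control SR9009 and 18.6 to 24.1 FPKM in control DMSO libraries, and 2 of 5 tested, Marco and Cd5l, fell in DMSO and 1 of 5, Marco, under SR9009. Most of the difference in the sum came from Marco, which averaged 1.66 FPKM in KO-labelled and 9.52 FPKM in control DMSO cells, while Adgre1 averaged 1.09 FPKM in KO-labelled and 1.08 FPKM in control DMSO cells. The 7 endothelial markers, likewise above 0 throughout, summed to 10.8 to 10.98 FPKM in KO-labelled SR9009 and 10.8 to 16.1 FPKM in KO-labelled DMSO libraries, against 7.25 to 8.74 FPKM in control SR9009 and 7.03 to 7.93 FPKM in control DMSO libraries, and 3 of 4 tested rose in DMSO and 0 of 4 passed between genotypes under SR9009 (limma). The 6 cholangiocyte markers summed to 34.5 to 38.7 FPKM in KO-labelled SR9009 and 29.1 to 38.8 FPKM in KO-labelled DMSO libraries, against 39.4 to 61.7 FPKM in control SR9009 and 42.1 to 44.7 FPKM in control DMSO libraries, with Sox9 higher and Spp1 lower in KO-labelled cells and Krt7 at 0 in 8 of 12 libraries. The 7 stellate cell markers summed to 1.71 to 2.80 FPKM over all libraries, with Lrat at 0 in 7 of 12. The part of these cells in the members' changes was not tested.

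Sequence around the start of transcription was available for 7 of the 10 members in RefSeq (build GRCm38.p6; 250 bases before the start and 50 after), and not for Tbx3, Rhbg or Gls2. The window was searched for 4 motifs on both strands, none of which contains another: ATCAAAG, bound by the TCF/LEF partners of β-catenin; AGGTCA, the core site that REV-ERB and ROR receptors share with other nuclear receptors; GCGTG, the core of the xenobiotic element bound by the aryl hydrocarbon receptor; and the E-box CACGTG. They occur in 3.73%, 16.3%, 32.4% and 7.15% of 32851 promoter windows of the same length, in that order. The 3 promoters of members that passed the test in at least 1 comparison and held a match are shown, with the matched letters in capitals:
Cyp2f2, chr7:27119705-27120004, plus strand: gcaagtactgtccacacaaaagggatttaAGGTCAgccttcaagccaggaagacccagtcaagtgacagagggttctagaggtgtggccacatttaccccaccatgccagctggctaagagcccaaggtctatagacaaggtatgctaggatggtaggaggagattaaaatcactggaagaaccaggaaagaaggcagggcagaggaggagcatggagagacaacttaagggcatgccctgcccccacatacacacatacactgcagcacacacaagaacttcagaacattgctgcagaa
Hal, chr10:93488518-93488817, plus strand: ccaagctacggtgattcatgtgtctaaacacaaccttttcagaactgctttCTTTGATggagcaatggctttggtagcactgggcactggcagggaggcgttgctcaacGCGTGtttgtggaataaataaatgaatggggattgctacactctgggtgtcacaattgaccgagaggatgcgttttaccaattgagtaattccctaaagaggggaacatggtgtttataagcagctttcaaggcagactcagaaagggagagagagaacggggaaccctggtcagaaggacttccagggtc
Glul, chr1:153899679-153899978, plus strand: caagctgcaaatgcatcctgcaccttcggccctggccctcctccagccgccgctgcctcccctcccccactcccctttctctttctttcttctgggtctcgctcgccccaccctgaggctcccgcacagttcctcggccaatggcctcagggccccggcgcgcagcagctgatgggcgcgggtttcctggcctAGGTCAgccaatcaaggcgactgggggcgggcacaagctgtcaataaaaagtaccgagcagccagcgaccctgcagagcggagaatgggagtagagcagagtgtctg
The capitals mark AGGTCA 221 bases upstream of the start in Cyp2f2, and 57 bases upstream in Glul. In Hal they mark ATCAAAG on the opposite strand, 199 bases upstream, which reads CTTTGAT on the strand printed, and GCGTG 141 bases upstream. A match describes letters only, and Cyp2e1, Cyp1a2, Oat and Axin2 had no match to these motifs in the same window.

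Among the periportal genes, Cyp2f2, a cytochrome P450 that activates naphthalene and a standard periportal marker, showed the smallest p of the members. It lies on mm9 chromosome 7, 27904928 to 27918679. In DMSO it stood at 444, 466 and 481 FPKM in KO-labelled libraries, against 197, 202 and 208 FPKM in control libraries. The groups were far apart: the lowest KO-labelled library was 444 FPKM and the highest control library 208 FPKM, with a log2 change of 1.19 (SE 0.05, adjusted p = 1.65e-08, limma). Under SR9009 it stood at 438, 434 and 443 FPKM in KO-labelled libraries, against 213, 200 and 189 FPKM in control libraries (log2 change 1.12, SE 0.05, adjusted p = 3.06e-08). This comparison shares no library with that in DMSO, though the same fit gave both and no label tells whether they share animals. Its groups did not overlap either. An opposite-strand model, Gm15883, overlaps Cyp2f2 by 6194 bp at a mean of 0.950 FPKM over all libraries, against 326 FPKM for Cyp2f2.

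Gls2, the liver glutaminase, releases ammonia from glutamine in periportal cells (chromosome 10, 127631513 to 127647060). Its levels in DMSO were 22.0, 28.2 and 25.9 FPKM in KO-labelled libraries, against 13.4, 12.7 and 12.03 FPKM in control libraries. No library of one group reached the range of the other, and the log2 change was 0.94 (SE 0.09, adjusted p = 1.80e-05, limma). Under SR9009 the values were 22.1, 21.8 and 26.0 FPKM in KO-labelled libraries, against 11.3, 11.4 and 11.3 FPKM in control libraries (log2 change 0.97, SE 0.09, adjusted p = 1.25e-05). The groups were again apart. The neighbour Spryd4, which overlaps Gls2 on the opposite strand by 97 bp, stood at 19.4 FPKM in KO-labelled and 14.5 FPKM in control DMSO cells on average (log2 change 0.40, adjusted p = 0.00235, limma), and reads of the 97 bp cannot be assigned without strand.

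Hal, histidine ammonia-lyase, starts the breakdown of histidine to glutamate (chromosome 10, 92951513 to 92982049). Its levels in DMSO were 6.89, 7.88 and 7.17 FPKM in KO-labelled libraries, against 3.21, 2.903 and 2.86 FPKM in control libraries. The groups did not overlap, and the log2 change was 1.06 (SE 0.11, adjusted p = 1.80e-05, limma). Under SR9009 it stood at 5.76, 5.13 and 6.21 FPKM in KO-labelled libraries, against 3.87, 2.83 and 3.16 FPKM in control libraries (log2 change 0.65, SE 0.11, adjusted p = 8.31e-04). These groups were apart too, although the ratio of the means was 1.74 under SR9009 and 2.45 in DMSO. The difference between these changes was -0.41 (95% interval -0.73 to -0.09, unadjusted p = 0.0176), and it did not pass after adjustment (adjusted p = 0.621, limma).

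The other genes of the histidine route moved with Hal. Uroc1 makes imidazolonepropionate from the product of Hal, Amdhd1 opens the ring, and Ftcd passes the formimino group to folate. In DMSO, Uroc1 stood at 43.4, 48.2 and 45.9 FPKM in KO-labelled libraries, against 31.0, 32.1 and 33.3 FPKM in control libraries (log2 change 0.50, adjusted p = 8.25e-05, limma). Amdhd1 stood at 26.8, 24.7 and 26.6 FPKM in KO-labelled libraries, against 16.1, 18.4 and 19.0 FPKM in control libraries (log2 change 0.52, adjusted p = 0.00315, limma). All 3 of these genes rose, Ftcd 1.32-fold (log2 change 0.40, adjusted p = 2.35e-04), and in each the groups were apart. Of all tested genes 11.7% were called higher in DMSO, and 41.2% had groups that did not overlap. Amdhd1 lies 4034 bp from Hal on the opposite strand, and Lta4h, 3872 bp away on the other side, did not pass (log2 change 0.06, adjusted p = 0.653). Under SR9009 all 3 were higher in KO-labelled cells again, beside 12.9% of all tested genes called higher. The log2 changes were 0.46, 0.54 and 0.39 for Uroc1, Amdhd1 and Ftcd.

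**Figure D2:**
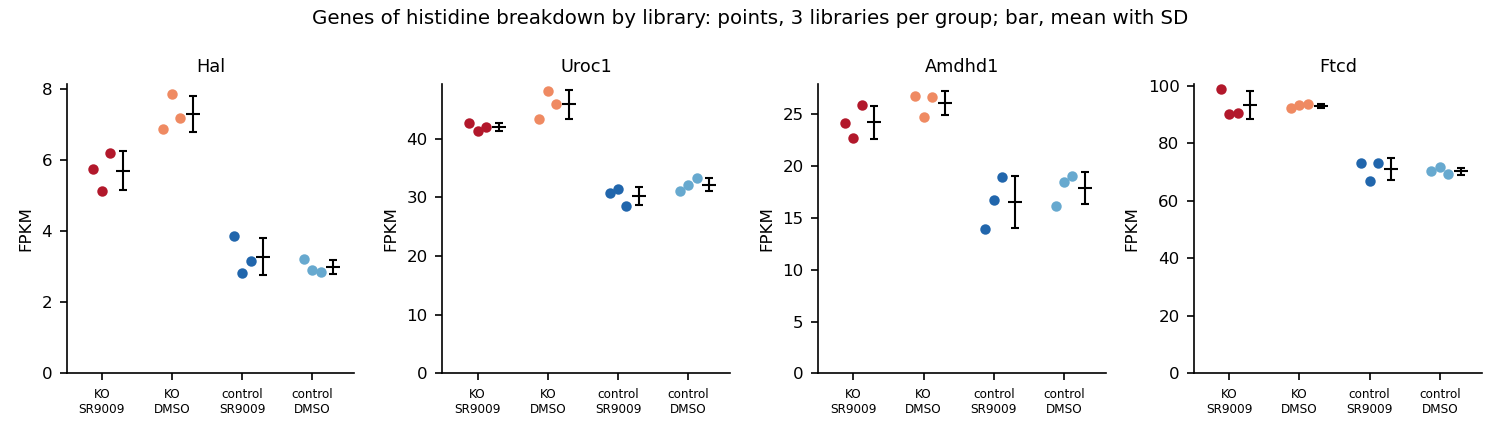
FPKM of Hal and the other genes of histidine breakdown in each library (y axis, linear from 0; KO means KO-labelled); points are libraries, 3 in each of the 4 groups on the x axis, and the bar is the mean with its SD. In all 4 panels every KO-labelled library lies above every control library, with Hal at 2.45 times and Ftcd at 1.32 times the control mean in DMSO.

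Among the pericentral genes, Oat and Glul fell in both comparisons of genotype. Oat, ornithine aminotransferase, links ornithine to glutamate (chromosome 7, 139749158 to 139768081). In DMSO it stood at 74.2, 77.7 and 81.9 FPKM in KO-labelled libraries, against 99.99, 109 and 108 FPKM in control libraries (log2 change -0.44, SE 0.06, adjusted p = 2.40e-04, limma). Under SR9009 it stood at 74.6, 73.9 and 81.9 FPKM in KO-labelled libraries, against 104, 99.9 and 102 FPKM in control libraries (log2 change -0.40, adjusted p = 3.93e-04). All 6 KO-labelled libraries were below all 6 control libraries. Oat lies within the model of Fgfr2, on the same strand. Fgfr2 was at a mean of 1.34 FPKM over all libraries and Oat at 90.6 FPKM.

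Glul, glutamine synthetase, is confined in the liver to the innermost pericentral cells (chromosome 1, 155747074 to 155756853). In DMSO it stood at 187, 190 and 200 FPKM in KO-labelled libraries, against 229, 241 and 244 FPKM in control libraries (log2 change -0.31, SE 0.05, adjusted p = 0.00178, limma). Under SR9009 it stood at 187, 175 and 197 FPKM in KO-labelled libraries, against 224, 232 and 226 FPKM in control libraries (log2 change -0.29, adjusted p = 0.00256). The groups were apart in both, and the log2 change was smaller in size than that of any periportal member.

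Rhbg, an ammonium transporter of the basolateral membrane, was low (chromosome 3, 88046796 to 88091132). In DMSO it stood at 1.14, 1.21 and 1.08 FPKM in KO-labelled libraries, against 1.79, 1.76 and 1.61 FPKM in control libraries (log2 change -0.35, SE 0.11, adjusted p = 0.04996, limma). The groups did not overlap, but the call held in only 3 of 14 alternatives, with adjusted p between 0.0239 and 0.131. Under SR9009 it stood at 1.42, 1.26 and 1.00 FPKM in KO-labelled libraries, against 1.98, 1.396 and 1.82 FPKM in control libraries. There the groups overlapped and the test was not passed (log2 change -0.29, adjusted p = 0.0925). A same-strand model, 1700021C14Rik, shares 7090 bp with Rhbg at a like level, 1.51 FPKM on average, so the Rhbg value is uncertain.

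Cyp2e1, the cytochrome P450 that oxidises ethanol and paracetamol, had the highest level of the members (chromosome 7, 147949638 to 147960874). Its levels in DMSO were 1769, 1830 and 1884 FPKM in KO-labelled libraries, against 1955, 2076 and 2051 FPKM in control libraries (log2 change -0.15, SE 0.05, adjusted p = 0.0424, limma). The groups were apart, but the call held in 5 of 14 alternatives, and after quantile normalization the change was 0.07 in the other direction (adjusted p = 0.404). Under SR9009 it stood at 1825, 1803 and 1940 FPKM in KO-labelled libraries, against 1949, 1969 and 1965 FPKM in control libraries. These values were apart by a small gap, and the change of -0.08 did not pass (95% interval -0.18 to 0.02, adjusted p = 0.265).

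Cyp1a2 and Tbx3 did not pass between genotypes. Cyp1a2, a cytochrome P450 that oxidises caffeine and is induced through the aryl hydrocarbon receptor, stood in DMSO at 287, 291 and 288 FPKM in KO-labelled libraries, against 279, 297 and 302 FPKM in control libraries (chromosome 9, 57524744 to 57531462). The groups overlapped, with a log2 change of -0.02 (95% interval -0.14 to 0.10, adjusted p = 0.847, limma), and of -0.03 under SR9009 (adjusted p = 0.743). Tbx3, a transcription factor of pericentral hepatocytes (chromosome 5, 120120678 to 120134733), stood at 2.18, 1.04 and 1.55 FPKM in KO-labelled libraries, against 1.53, 1.80 and 1.496 FPKM in control libraries. Its interval in DMSO, -0.43 to 0.36, is wide beside its level (log2 change -0.03, adjusted p = 0.924, limma). Under SR9009 Tbx3 stood at 1.55, 1.53 and 1.04 FPKM in KO-labelled libraries, against 1.03, 1.997 and 1.16 FPKM in control libraries, and the groups overlapped again (adjusted p = 0.998).

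Axin2, a feedback inhibitor that is a direct target of β-catenin, was close to 0 in every library (chromosome 11, 108781663 to 108812097). It stood at 0.0138, 0.0569 and 0.120 FPKM in KO-labelled DMSO libraries, against 0.0919, 0.103 and 0.0640 FPKM in control DMSO libraries (two-sided exact permutation p = 0.6). The ranges overlapped, and a difference was not detectable at this depth. With SR9009 it lay between 0.0414 and 0.151 FPKM in KO-labelled and between 0.0404 and 0.0946 FPKM in control libraries (two-sided exact permutation p = 0.6). Axin2 is therefore counted among the members but not among the 9 tested.

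Between genotypes under SR9009, 5 of 9 members passed: Cyp2f2, Hal and Gls2 were higher in KO-labelled cells and Oat and Glul lower. Among all tested genes 20.4% passed, 12.9% higher and 7.43% lower. As in DMSO, these shares are description only, since the members were chosen with earlier results known. The split of all calls was 63.5% higher, or 73.9% after rescaling to a common sum. The libraries did not overlap for 6 of 9 members, against 34.9% of all tested genes. These 5 members passed in all 14 alternatives in both comparisons.

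SR9009 itself raised Cyp1a2 and no other member in either genotype. In KO-labelled libraries Cyp1a2 stood at 357, 351 and 372 FPKM with SR9009, against 287, 291 and 288 FPKM with DMSO (log2 change 0.32, SE 0.06, adjusted p = 0.00354, limma). In control libraries it stood at 383, 380 and 342 FPKM with SR9009, against 279, 297 and 302 FPKM with DMSO (log2 change 0.33, SE 0.06, adjusted p = 0.00330). Every SR9009 library was above every DMSO library of its genotype, by 24.8% and 25.8% of the mean. After quantile normalization both calls ended (adjusted p = 0.0914 in KO-labelled and 0.0615 in control cells), and the call in control cells ended also when only its own libraries were fitted (adjusted p = 0.0519).

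The count of 1 in 9 members stands beside 9.87% of all tested genes called for SR9009 in KO-labelled cells and 8.24% in control cells. The comparison in control cells shares its DMSO libraries with the genotype comparison in DMSO. Hal came nearest after Cyp1a2: it averaged 5.70 ± 0.543 FPKM with SR9009 and 7.32 ± 0.506 FPKM with DMSO in KO-labelled cells (SD, n = 3 each), a log2 change of -0.31 that did not pass (adjusted p = 0.0888, limma). Cyp2f2, Gls2, Glul, Oat, Cyp2e1, Rhbg and Tbx3 had SR9009 changes between -0.15 and 0.05 in both genotypes, with none past the test.

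The SR9009 effects were compared between genotypes by an interaction term. No member passed (limma), and Hal alone had an unadjusted p under 0.05. Of all tested genes 3 passed, or 0.0268%, and 787 had an unadjusted p under 0.05. For Cyp1a2 the difference between its changes was -0.01, with a 95% interval of -0.18 to 0.16.

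**Figure D3:**
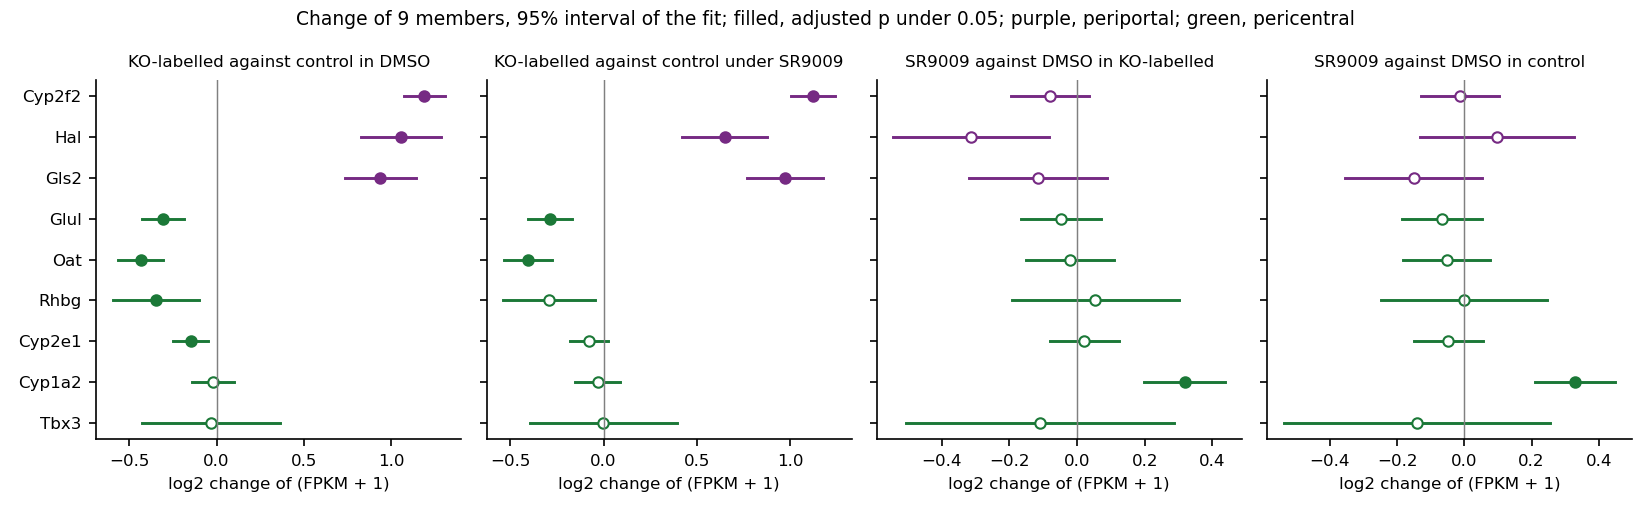
Log2 change of (FPKM + 1) for the 9 tested members in 4 comparisons (x axis; each panel has its own scale), as points with the 95% interval of the fit; filled points passed at an adjusted p of 0.05, purple is periportal and green pericentral. In the panels of genotype the periportal points lie at 0.65 to 1.19 and the pericentral ones at or below 0, and in the panels of SR9009 only Cyp1a2 is filled, at 0.32 and 0.33.

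The order of the levels changed with genotype. In control DMSO cells the order was Cyp2e1, Cyp1a2, Glul, Cyp2f2, Oat, Gls2 and Hal, then Rhbg, Tbx3 and Axin2. In KO-labelled DMSO cells Cyp2f2 stood next below Cyp2e1, above Cyp1a2 and Glul, with its lowest library at 444 FPKM and the highest Cyp1a2 library at 291 FPKM. Neighbours in the order did not overlap in any group, except Rhbg and Tbx3, which overlapped in all 4. The order was the same with SR9009 as with DMSO within each genotype.

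Ratios within a library of a pericentral over a periportal member need no scaling between libraries. Cyp2e1 over Cyp2f2 was 4.16 to 4.38 in KO-labelled SR9009 and 3.92 to 3.99 in KO-labelled DMSO libraries, against 9.17 to 10.4 in control SR9009 and 9.84 to 10.3 in control DMSO libraries. Glul over Gls2 was 7.59 to 8.47 in KO-labelled SR9009 and 6.74 to 8.51 in KO-labelled DMSO libraries, against 19.8 to 20.3 in control SR9009 and 17.1 to 20.3 in control DMSO libraries. Oat over Hal was 13.0 to 14.4 in KO-labelled SR9009 and 9.86 to 11.4 in KO-labelled DMSO libraries, against 26.8 to 35.3 in control SR9009 and 31.2 to 37.7 in control DMSO libraries. In all 3 pairs the 6 KO-labelled libraries lay below the 6 control libraries. The pairs were formed after the values had been seen and were not tested.

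**Figure D4:**
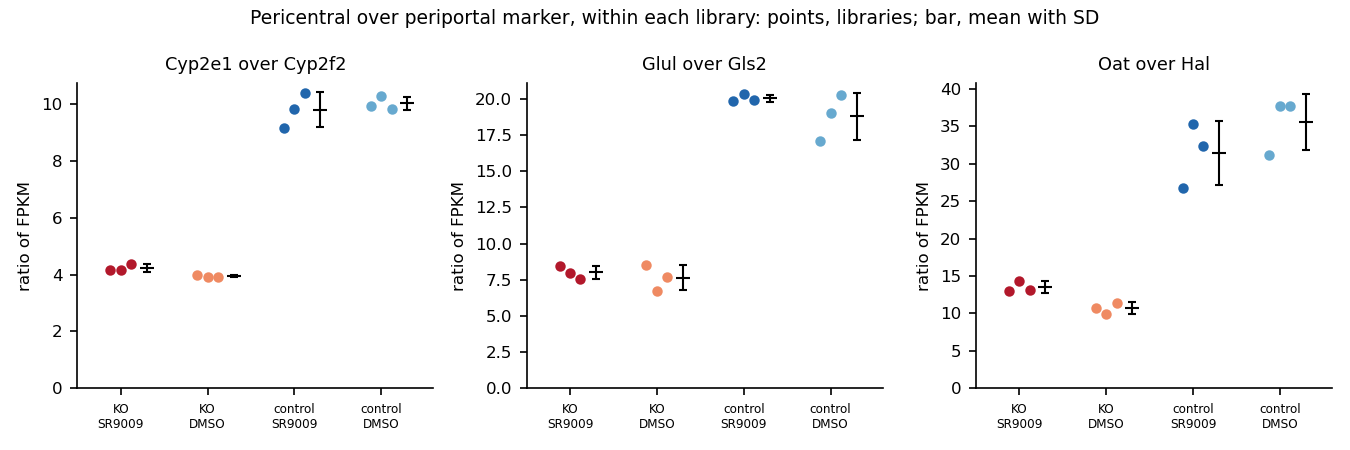
Ratio of the FPKM of a pericentral to that of a periportal member within each library (y axis, linear from 0; KO means KO-labelled); points are libraries, 3 in each of the 4 groups on the x axis, and the bar is the mean with its SD. The KO-labelled libraries lie at 3.92 to 4.38 for Cyp2e1 over Cyp2f2, against 9.17 to 10.4 in the control libraries.

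Further zonated genes were read beside the members. Their lists were chosen with earlier results of these data known, so the shares of all genes are description only. Uroc1, named above with Hal, is among the other periportal genes that rose. Of 22 other periportal genes, all tested, 13 rose and 3 fell in KO-labelled DMSO cells (11.7% and 8.32% of all tested genes did), with a median log2 change of 0.27, against 0.04 over all tested genes. Those that rose included Ass1 of the urea cycle (1138 FPKM in KO-labelled against 645 FPKM in control cells, log2 change 0.82), Pck1, which commits carbon to glucose synthesis (33.6 FPKM in KO-labelled against 18.2 FPKM in control cells, log2 change 0.85), and the steroid dehydrogenase Hsd17b6 (268 FPKM in KO-labelled against 31.2 FPKM in control cells, log2 change 3.06). Mfsd2a, a lipid transporter, fell (3.36 FPKM in KO-labelled against 9.48 FPKM in control cells, log2 change -1.27), as did the serine dehydratase Sds. Under SR9009, 11 rose and 3 fell, beside 12.9% and 7.43% of all tested genes, with a median of 0.29 against 0.06.

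The other pericentral genes were split in direction. Of 20, 18 were tested in DMSO, and 6 rose, 6 fell and 6 did not pass, with a median log2 change of -0.06. Among all tested genes 11.7% rose and 8.32% fell, with a median of 0.04. Aldh1a1, which makes retinoic acid, fell (189 FPKM in KO-labelled against 323 FPKM in control cells, log2 change -0.77), and so did Por, the electron donor of the cytochromes P450 (285 FPKM in KO-labelled against 435 FPKM in control cells, log2 change -0.61), and Gulo, of vitamin C synthesis (63.1 FPKM in KO-labelled against 84.5 FPKM in control cells, log2 change -0.42). Cyp2a5 rose (2272 FPKM in KO-labelled against 341 FPKM in control cells, log2 change 2.73). So did the glutathione transferases Gstm3 (751.5 FPKM in KO-labelled against 103.6 FPKM in control cells, log2 change 2.85) and Gstm1 (3934 FPKM in KO-labelled against 1868 FPKM in control cells, log2 change 1.07). Reads of these families can be split between near-identical copies, and the part of this was not tested. Under SR9009, 6 rose and 5 fell, beside 12.9% and 7.43% of all tested genes, with a median of 0.10 against 0.06. SR9009 raised 6 and lowered 1 of these 18 in KO-labelled cells, and raised 5 and lowered 1 in control cells. Of all tested genes 9.87% were called for SR9009 in KO-labelled cells and 8.24% in control cells, in either direction. Por was among those raised in both (log2 changes 0.54 and 0.58).

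**Figure D5:**
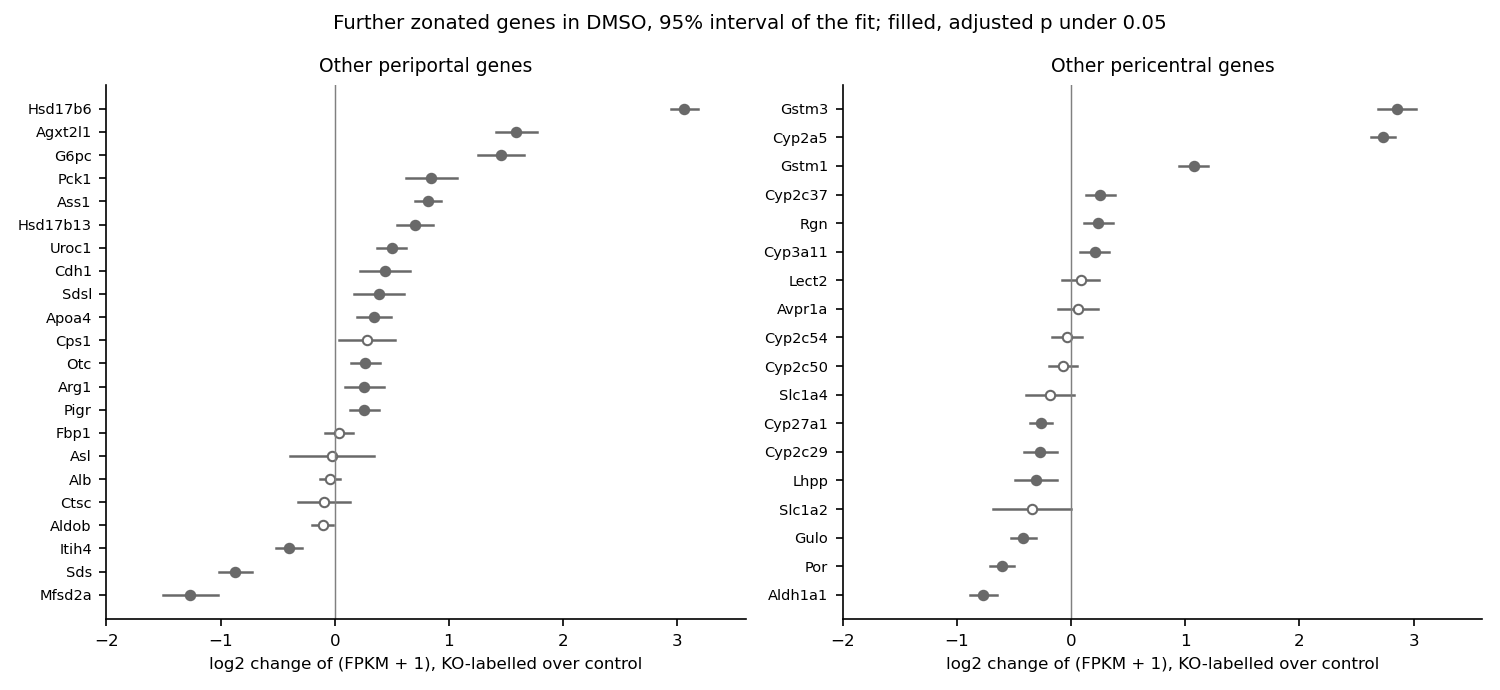
Log2 change of (FPKM + 1) in KO-labelled over control cells in DMSO (x axis) for 22 other periportal and 18 other pericentral genes, as points with the 95% interval of the fit; filled points passed at an adjusted p of 0.05. Of the periportal genes 13 lie to the right and 3 to the left among the filled points, and of the pericentral genes 6 lie on each side.

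Genes of the WNT pathway were read beside the 20.0% of all tested genes that passed between genotypes in DMSO and the 20.4% under SR9009. None of 7 WNT ligands and R-spondins reached the level for testing, and Rspo1 was at 0 in all 12 libraries. Of 8 receptors 1 rose in KO-labelled DMSO cells, the co-receptor Lrp5, which stood at 9.81, 8.73 and 9.18 FPKM in KO-labelled libraries, against 4.73, 4.47 and 4.54 FPKM in control libraries (log2 change 0.88, adjusted p = 3.70e-05, limma). Its groups were far apart. Of 15 signal transducers 1 rose, Ctnnb1, which encodes β-catenin (89.3 FPKM in KO-labelled against 73.9 FPKM in control cells, log2 change 0.27, adjusted p = 0.0170). Under SR9009 Lrp5 was higher again, and of the transducers Ctnnb1 and Axin1 were higher (log2 changes 0.34 and 0.23) and Dvl2 was lower (log2 change -0.34). With SR9009 against DMSO in KO-labelled cells, 1 receptor, Lgr4, and 1 transducer, Tcf7l1, fell (log2 changes -0.41 and -0.60, adjusted p = 0.0290 and 0.00734, limma). In control cells no receptor or transducer passed for SR9009. Of all tested genes 9.87% were called for SR9009 in KO-labelled cells and 8.24% in control cells. Of 9 targets and feedback genes 4 were tested (Rnf43, Znrf3, Notum and Tcf7) and none passed in any of the 4 comparisons, while Lgr5 stayed at or below 0.211 FPKM. Notum in DMSO came nearest, at 0.943 FPKM in KO-labelled against 2.155 FPKM in control cells, with the groups apart (log2 change -0.66, adjusted p = 0.0514, limma).

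Of 11 regulators of zonation, 2 rose and 3 fell in KO-labelled DMSO cells, beside 11.7% of all tested genes that rose and 8.32% that fell. The median log2 change of the list was -0.14, against 0.04 over all tested genes, and under SR9009 2 rose and 5 fell, beside 12.9% and 7.43% of all genes. Arnt, the partner of Ahr, was among those that rose (log2 change 0.58), and the xenobiotic receptor Nr1i3, Epas1 and Ahr fell. Ahr, the receptor that drives Cyp1a2, stood at 5.99, 4.69 and 4.59 FPKM in KO-labelled libraries, against 7.29, 7.55 and 9.495 FPKM in control libraries (log2 change -0.58, adjusted p = 0.0197, limma), while Cyp1a2 did not pass. Of 6 other targets of Ahr 2 were tested, and in DMSO 1 was higher and 1 lower in KO-labelled cells. Nqo1 averaged 18.6 FPKM in KO-labelled against 15.9 FPKM in control DMSO cells. Tiparp averaged 21.3 FPKM in KO-labelled against 30.1 FPKM in control DMSO cells. Under SR9009, too, 1 was higher and 1 lower. With SR9009 in KO-labelled cells Nqo1 rose (24.7 FPKM with SR9009 against 18.6 FPKM with DMSO, log2 change 0.39, adjusted p = 0.00187, limma) and Tiparp did not pass, beside 9.87% of all tested genes called. In control cells neither passed, beside 8.24% of all tested genes called. Cyp1a1, the closest relative of Cyp1a2 on the list, was below 1 FPKM in every library and was not tested.

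Around Gls2, Glul and Oat, 12 of 13 genes of glutamine, glutamate and ornithine handling were tested, of which 3 rose and 2 fell in KO-labelled DMSO cells, beside 11.7% and 8.32% of all tested genes. The median log2 change of the list was 0.03, against 0.04 over all tested genes. Under SR9009 3 rose and 1 fell, beside 12.9% and 7.43% of all tested genes, with a median of 0.05 against 0.06. The glutamine transporter Slc38a3 rose (338 FPKM in KO-labelled against 216 FPKM in control cells, log2 change 0.65, adjusted p = 1.20e-05, limma), with Got1 and Slc38a4. Odc1, which turns ornithine into polyamines, and Aldh18a1, which makes proline precursors, fell (log2 changes -0.42 and -0.52). Of 3 ammonia and bicarbonate transporters only Slc4a4 was tested, and it did not pass between genotypes, in DMSO or under SR9009. Slc4a4, a bicarbonate transporter, fell with SR9009 in KO-labelled cells (16.7 FPKM with SR9009 against 25.8 FPKM with DMSO, log2 change -0.60, adjusted p = 0.00390, limma) and in control cells (18.2 FPKM with SR9009 against 25.4 FPKM with DMSO, log2 change -0.46, adjusted p = 0.01996). Of all tested genes 9.87% were called for SR9009 in KO-labelled cells and 8.24% in control cells.

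The genes nearest to single members in pattern were taken by the smallest root mean square difference of centred log2 values over the 12 libraries. Oat was nearest to Gulo (0.0471), which is on the pericentral list. Cyp2e1 was nearest to Ephx2 (0.0304), Cyp1a2 to Gtf2h1 (0.0581) and Rhbg to Rps2 (0.0634). Cyp2f2 was nearest to Anxa5 (0.0992), Hal to Pcsk4 (0.0933) and Gls2 to Ero1lb (0.111), which were further off than the genes named for Oat, Cyp2e1, Cyp1a2 and Rhbg.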

How the data were processed

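RNA was sequenced in 12 libraries of plated hepatocytes, and the deposited values were taken as FPKM, since library sums differ and low values step with gene length. Per the submitters' processing notes, the authors used HISAT2 and StringTie on mm9; nothing used here gives versions, annotation or strandedness. Genes reaching 1 FPKM in 3 libraries (11213 of 37991) were tested on log2(FPKM + 1), a scale that understates changes of low genes, in R 4.3.3 by limma 3.58.1, with a mean per group and trended, robust variances. P-values were adjusted by Benjamini-Hochberg over all tested genes at 0.05, and Axin2, Nr1d1 and Nr1d2 were compared by exact permutation. The fit was tested on simulated data. Total counts are not in the table, so precision rests on relative depth. Folds are ratios of mean FPKM. Members and lists were chosen with earlier results of these data known. Named were all members, listed genes, and the nearest genes by pattern; a few genes this takes in are not reported here. Alternatives were a pseudocount of 0.1, no filter, a common sum, quantile normalization, a replicate block, plain variance, the groups alone, each library left out, and, chosen after seeing the data, both shallowest libraries left out. Motifs were searched in RefSeq promoters of GRCm38.p6, while gene positions are those of the deposited table in mm9. The largest share of tested genes with equal values in a pair of libraries was 0.0535%.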

Additional observations from a re-analysis of the deposited data

How the results depend on the processing

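The changes of Cyp2f2, Hal, Gls2, Oat and Glul between genotypes passed in all 14 alternatives, in DMSO and under SR9009. Of 675 values of single members, 599 kept direction and side of the threshold, 22 ended below it, 3 came above it and 51 changed sign. Those that changed sign did not pass the test beforehand, except Cyp2e1 in DMSO, which was 0.0694 after quantile normalization; the cause was not tested. The numbers of replicates did not pair the libraries: same-numbered libraries correlated at -0.112 to 0.122 over 18 pairs, 1 of them over 0.1. With a replicate block, 2084 genes were called between genotypes in DMSO, 2131 under SR9009, and 0 for the interaction.

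Genes called for SR9009 numbered 603 to 859 in KO-labelled cells and 530 to 919 in control cells with a library left out, and for the interaction 0 to 5. In control cells they numbered 376 in the fit to the groups alone and 609 without both shallowest libraries. The genotype comparison under SR9009 gave 1518 in the fit to its groups alone. The interaction gave 1 with no filter, with quantile normalization, with plain variance and without both shallowest libraries. No member was called for SR9009 in either genotype after quantile normalization (0 in each), nor in control cells in the fit to the groups alone (0).

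Among uncalled members, KO-labelled against control in DMSO, Cyp1a2 was 0.043 and Tbx3 0.0019 on the common sum, and Cyp1a2 0.0572 after quantile normalization. Under SR9009, Tbx3 was 0.01 with a pseudocount of 0.1, Cyp1a2 0.0348 and Tbx3 0.0472 on the common sum, and Cyp2e1 0.12 and Cyp1a2 0.0198 after quantile normalization. For SR9009, quantile normalization gave Rhbg 0.0407 in control and Cyp2e1 -0.0405 in KO-labelled cells, and Glul -0.0222 in the interaction. Without both shallowest libraries, Cyp2e1 was -0.0011 and Tbx3 0.0505 for SR9009 in KO-labelled cells, and the interaction was -0.0111 for Glul, 0.0144 for Cyp1a2 and -0.0627 for Gls2.

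With a library left out, the log2 changes ranged as follows. For KO-labelled against control, Cyp1a2 in DMSO ran from -0.0534 to 0.0038, Tbx3 in DMSO from -0.19 to 0.13 and Tbx3 under SR9009 from -0.11 to 0.17. For SR9009 in KO-labelled cells, Cyp2e1 ran from -0.0103 to 0.0442, Tbx3 from -0.27 to 0.0505, Oat from -0.0676 to 0.0155 and Rhbg from -0.0066 to 0.13. For SR9009 in control cells, Rhbg ran from -0.0667 to 0.0901 and Cyp2f2 from -0.0555 to 0.0289. For the interaction, Cyp1a2 ran from -0.0649 to 0.0225, Tbx3 from -0.13 to 0.20, Rhbg from -0.0358 to 0.13, Glul from -0.0218 to 0.0654, Oat from -0.0153 to 0.0706 and Gls2 from -0.0596 to 0.11.

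Axin2 was too low for the fit, at or below 0.151 FPKM in every library. The interval of Tbx3 in DMSO, -0.43 to 0.36, was the widest of the 9 tested members; the part of depth in it was not tested.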
